A study of Mus musculus with 4 samples.

Results

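The mitochondrial ribosomal protein genes examined here are all genes with a non-control probe named Mrpl or Mrps plus a number in the array files. The rule took 109 of 55681 probes, which represent 77 of 22563 named genes. By name, 48 are Mrpl (large subunit) and 29 Mrps (small subunit) genes. Subunits below follow the names, although the Mrps18a and Mrps30 proteins are known to sit in the large subunit and Mrps36 in another complex. A textbook split puts 47 of the 77 among proteins with a counterpart in the bacterial ribosome and 30 among proteins found in mitochondrial ribosomes and not in bacterial ones. All 77 had a probe well above background on at least 1 array, and 75 had one on all 4 arrays.

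The arrays hold RNA of LSK cells (lineage-negative, Sca-1+, c-Kit+), the bone marrow fraction that contains the blood stem cells and multipotent progenitors. The cells were sorted from lethally irradiated recipients that had been given E14.5 fetal liver cells of C57B6 background. Donor cells were TET2KD (TET2 knock-down, collected 10 weeks after transplantation), JAK2V617F (transgenic, 16 weeks), double mutant (both lesions, 13 weeks) or WT (16 weeks). Each genotype had 5 mice and 1 array, and the sources used here do not say whether the 5 mice were pooled. Irradiation and transplantation were common to all 4 groups, WT included, and the promoter of the JAK2V617F transgene is not given in the sources used here.

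Mitochondria keep their own ribosomes, which translate the few proteins encoded by mitochondrial DNA, all of them parts of the respiratory chain and ATP synthase. The ribosomal RNAs come from mitochondrial DNA, but every protein of these ribosomes is encoded in the nucleus, made in the cytosol and imported. Blood stem cells are known for low rates of protein synthesis and for relying less on mitochondrial respiration than their dividing progeny.

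With 1 array per genotype, no difference between 2 arrays has a replicate check or a p-value. Signals are given as scaled log2 levels, on which 0 is the 75th percentile of the array's signals, and a difference of 1 is 2-fold. Repeated spots of a probe on 1 array had an SD of 0.151 to 0.159 log2 units, which gives a difference of 2 such spots an SD of 0.22. That figure covers spotting and scanning only, not differences between mice, sorts or amplifications. In such bulk samples, fewer cells of a type and less RNA per cell cannot be told apart.

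Between 49.4% (TET2KD) and 54.7% (JAK2V617F) of non-control spots were well above background. The Tet2 probe at chr3:133126905-133126964 (mm9) gave 27.3% of the WT signal on the TET2KD array, 73.1% on the JAK2V617F array and 60.3% on the double mutant array. The probe at chr3:133126751-133126810 gave 56.3% of WT for TET2KD, 105% for JAK2V617F and 61.6% for the double mutant. One more Tet2 probe, at chr3:133176421-133176479, went the other way for the double mutant, the single array on which it was well above background, with 380.0% of the raw WT reading. No ratio is given for it on the TET2KD and JAK2V617F arrays, where it was below background, as in WT. The Jak2 probe, which does not tell the mutant from the normal transcript, gave 95.8% to 110% of WT. Of 7 LSK gate markers 6 were above background on every array, Slamf1 being the exception, and their summed level, in units of the array's 75th percentile, lay between 36.8 (double mutant) and 72.1 (WT). Summed neutrophil markers (6 genes, Mmp9 above background on no array) lay between 4.4 in JAK2V617F and 23.5 in TET2KD. The 3 mast cell and eosinophil markers summed to 166 for TET2KD, 24.1 for JAK2V617F and 52.1 for the double mutant, against 195 for WT, with Cpa3 not above background in JAK2V617F and the double mutant. The 4 T cell markers (Cd3g and Cd8a above background on none) summed to between 2.12 and 2.79, and the 4 megakaryocyte markers to between 2.38 in the double mutant and 8.68 in JAK2V617F. Of the erythroid genes, Slc4a1, the anion exchanger of red cells, was 23.6-fold higher in TET2KD and 20.1-fold higher in the double mutant than in WT, and 1.15-fold lower in JAK2V617F. The alpha globin gene Hba-a1 was 15.1-fold higher in TET2KD, 5.4-fold higher in the double mutant and 4.77-fold lower in JAK2V617F, and the beta globin gene Hbb-b1 at least 7.99-fold higher in TET2KD. Of the B and plasma cell genes, Cd79a and Cd79b, the signalling chains of the B cell receptor, were 31.4-fold and 4.69-fold lower in TET2KD, and Jchain, the joining chain of secreted antibodies, was 6.74-fold higher. The part of these genes and lists in the differences below was not tested.

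The probes are 60 bases long, with a GC content of 28.3% to 65.0% and a median of 43.3%. They lie on 17 chromosomes, and 14 of them span an intron in mm9. The probes whose values the results turn on are shown here 5′ to 3′. The probe for Mrpl37 (mm9 chr4:106733238-106734539, minus strand, across an intron) was the member most above WT in TET2KD, and the first of the Mrps2 probes (chr2:28325206-28325265, plus strand) is one of a pair that differed. Both are printed whole and have a reading frame without a stop.
Mrpl37: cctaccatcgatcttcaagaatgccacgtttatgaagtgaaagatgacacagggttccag
Mrps2, probe nearer the 5′ end: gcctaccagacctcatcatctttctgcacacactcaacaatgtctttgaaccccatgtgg

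Of the next probes a stretch of 30 bases is given, the first 30 except for the upstream Mrps7 probe, of which bases 31 to 60 are shown. Mrpl55 (chr11:59019327-59019386, plus strand) was the member most below WT in TET2KD, and Mrpl35 (chr6:71765277-71765336, minus strand) was above background only on the arrays with JAK2V617F. The Mrpl23 probes (chr7:149726589-149726647 and chr7:149726594-149726652, plus strand) share a run of 55 bases, of which the capitals mark the part shown. The Mrps7 probes (chr11:115468609-115468668 and chr11:115468668-115468727, plus strand) lie end to end and share 1 base.
Mrpl55: accagggacattttgtaaggatggagggca
Mrpl35: caggctctcttagttgtatcagtaggttca
Mrpl23, first probe: ccacaGACCCTAGTGAGCACAGTGGTTCTG
Mrpl23, second probe: GACCCTAGTGAGCACAGTGGTTCTGACAAG
Mrps7, upstream probe: gaaagttctggaagttaaggacggagagtg
Mrps7, downstream probe: gctgtttgtaatgcagtcttccattctgtg

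Across the 4 arrays, the members were most often lowest in TET2KD and most often highest in JAK2V617F. TET2KD was the lowest array for 36 of 77 members (46.8%, against 20.8% of all genes), JAK2V617F for 5 (6.49%, against 31.6%), the double mutant for 11 (14.3%, against 25.4%) and WT for 25 (32.5%, against 22.3%). JAK2V617F was the highest array for 31 members (40.3%, against 23.7% of all genes), and TET2KD for 9 (11.7%, against 27.1%). None of the 30 mitochondria-specific members was lowest in JAK2V617F, where 16 of them were highest. The median range over the arrays was 1.32 log2 units for the members, against 1.19 for all genes, 0.99 for 81 nuclear respiratory chain genes and 0.39 for 81 cytosolic ribosomal protein genes.

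**Figure D1:**
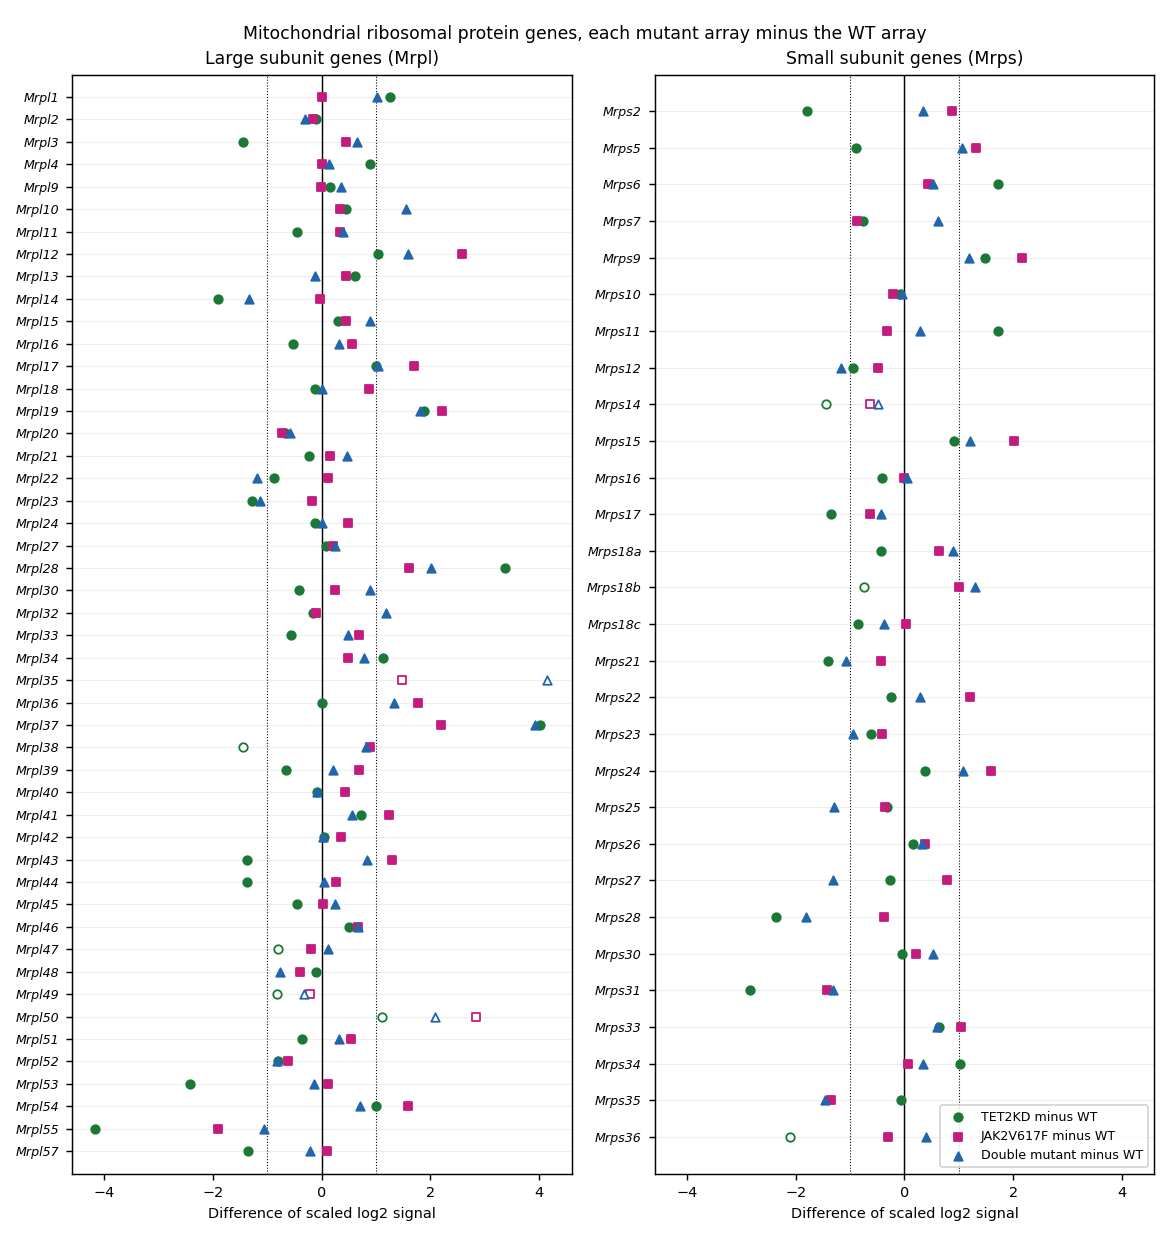
Difference of the scaled log2 signal of each mutant array from the WT array, for 48 Mrpl genes (left) and 29 Mrps genes (right). Circles stand for TET2KD, squares for JAK2V617F and triangles for the double mutant, open symbols mark differences with a probe at the background floor on 1 side, and dotted lines mark 2-fold. Mrpl55 and Mrpl37 lie at -4.17 and 4.02 in TET2KD.

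In TET2KD cells the members were, on the median, slightly lower than in WT cells, with large differences of single genes in both directions. The median difference over the 76 members compared was -0.26 (quartiles -0.86 and 0.46), against -0.05 over all 14315 genes compared. Of the 76, 49 were lower by any amount (64.5%, against 52.4% of all genes). At least 2-fold, 12 were higher (15.8%, where 15.9% of all genes were) and 16 lower (21.1%, where 17.5% of all genes were). The shares past 2-fold were thus near those of all genes. The erythroid genes Slc4a1 and Hba-a1 were 23.6-fold and 15.1-fold higher and the B cell gene Cd79a 31.4-fold lower on the same array, and their part in the result was not tested.

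The member with the largest lower difference was Mrpl55, a large subunit protein without a bacterial counterpart. Its level was -0.72 in TET2KD, against 3.45 in WT, an 18-fold lower signal. JAK2V617F at 1.54 and the double mutant at 2.39 lay between them. Mrps31, a small subunit protein without a bacterial counterpart, had a level of -0.63 in TET2KD, against 2.22 in WT, and was 7.17-fold lower. Mrpl53 stood at -1.08 in TET2KD, against 1.35 in WT, while JAK2V617F (1.46) and the double mutant (1.2) were close to WT. Mrps28 was lower in both arrays with the TET2 knock-down, with levels of -0.35 in TET2KD and 0.19 in the double mutant, against 1.63 in JAK2V617F and 2.01 in WT. Mrpl14, which in human mitochondria is the binding partner of the assembly factor MALSU1, showed the same order of arrays, with levels of 0.36 in TET2KD and 0.94 in the double mutant, against 2.24 in JAK2V617F and 2.28 in WT.

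Other members at least 2-fold lower in TET2KD included Mrps36 (-2.11), Mrps2 (-1.79) and Mrpl3 (-1.45). Despite its name, the Mrps36 protein is now known as a component of the 2-oxoglutarate dehydrogenase complex. Mrps14 (-1.45) rested on 3 probes, one of which was above background in WT and on no other array. Mrpl38, below background in TET2KD, was at least 2.7-fold lower there. The remaining 6, from -1.28 to -1.40, were Mrpl23, Mrps17, Mrpl57, Mrpl44, Mrpl43 and Mrps21. Mrpl23 is the counterpart of a protein at the exit of the bacterial ribosome's peptide tunnel, and Mrps17 that of an RNA-binding protein of the small subunit.

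The largest higher signal in TET2KD was that of Mrpl37, a mitochondria-specific large subunit protein. Its level was 2.48 in TET2KD, against -1.54 in WT, with JAK2V617F at 0.65 and the double mutant at 2.38. All 3 mutants were thus above WT, TET2KD by 16.2-fold. Mrpl28 had a level of 0.78 in TET2KD, against -2.6 in WT (10.4-fold higher), with JAK2V617F at -1.0 and the double mutant at -0.59. The other 10 that were at least 2-fold higher lay between 1.0 and 1.89. They were Mrpl19, Mrps6, Mrps11, Mrps9, Mrpl1, Mrpl34, Mrpl50, Mrpl12, Mrps34 and Mrpl54. Mrps6, Mrps9 and Mrps11 are small subunit proteins with bacterial counterparts, and Mrpl1 is the protein of the mobile L1 stalk.

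By name, the large subunit had a median of -0.13 (8 higher and 9 lower past 2-fold) and the small subunit -0.42 (4 higher and 7 lower). Of all genes, 15.9% were higher and 17.5% lower past 2-fold. Members with a bacterial counterpart had a median of -0.20, and mitochondria-specific ones -0.30. TET2KD cells were collected 6 weeks earlier than WT cells, and genotype and time cannot be told apart in this comparison. The same holds for the 3 comparisons of the double mutant, collected at 13 weeks.

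JAK2V617F cells, collected at the same time as WT, had higher levels of most members than WT cells. The median over 77 members was 0.33 (quartiles -0.18 and 0.87), against -0.01 over all 14897 genes compared. At least 2-fold, 17 members were higher (22.1%, where 15.5% of all genes were) and 3 lower (3.9%, where 15.7% of all genes were). By any amount, 52 were higher (67.5%, against 49.4% of all genes).

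Mrpl12, the stalk protein that in human cells also binds the mitochondrial RNA polymerase, had a level of 3.50 in JAK2V617F, against 0.91 in WT. TET2KD (1.95) and the double mutant (2.49) lay between them, and the JAK2V617F signal was 6.01-fold that of WT. Mrpl50, a mitochondria-specific large subunit protein, was 2.83 higher, with 1 of its 2 probes not well above background in WT. Mrpl19 (2.21), Mrpl37 (2.19), Mrps9 (2.16) and Mrps15 (2.01) were at least 4-fold higher. Mrpl36, the counterpart of a very small protein of the bacterial large subunit, had levels of 2.22 in JAK2V617F and 1.76 in the double mutant, against 0.44 in TET2KD and 0.43 in WT, so the arrays with JAK2V617F stood above those without.

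The remaining members past 2-fold were Mrpl17 (1.70), Mrpl28 (1.60), Mrps24 (1.59), Mrpl54 (1.58), Mrps5 (1.31), Mrpl43 (1.30), Mrpl41 (1.23), Mrps22 (1.2), Mrps33 (1.04) and Mrpl35. Mrpl35 was not above background in WT and was at least 2.77-fold higher in JAK2V617F. Mrps5, the counterpart of a bacterial protein near the mRNA entry channel, had levels of 1.40 in JAK2V617F and 1.15 in the double mutant, against -0.81 in TET2KD and 0.09 in WT. The 3 members past 2-fold in the other direction, Mrpl55 (-1.91), Mrps31 (-1.43) and Mrps35 (-1.35), are all mitochondria-specific. Next after them, short of 2-fold, came Mrps7 (-0.88), Mrpl20 (-0.74), Mrps14 and Mrps17 (both -0.64), Mrpl52 (-0.63), Mrps12 (-0.49) and Mrps21 (-0.44).

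The large subunit median was 0.38 (11 higher and 1 lower past 2-fold), and the small subunit median 0.02 (6 higher and 2 lower). Past 2-fold, 15.5% of all genes were higher and 15.7% lower. The difference between the subunits was not tested. Summed markers of neutrophils and of mast cells and eosinophils were lowest in JAK2V617F (4.4 against 19.1 in WT, and 24.1 against 195), and their part in the result was not tested.

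In double mutant cells, the median member was also above WT, at 0.31 (all 14818 genes compared, -0.01). At least 2-fold, 16 members were higher (20.8%, where 15.3% of all genes were) and 11 lower (14.3%, where 16.6% of all genes were). By any amount, 51 of 77 were higher (66.2%, against 49.4% of all genes). This comparison and the previous ones share the WT array.

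Mrpl35 showed the largest value. Its level was 1.13 in the double mutant and -1.54 in JAK2V617F, and it was not above background in TET2KD and WT, which put the double mutant at least 17.7-fold above WT. Mrpl37 was 15.2-fold higher than in WT. Mrpl50 (2.09), Mrpl28 (2.02), Mrpl19 (1.8) and Mrpl12 (1.58) were more than 2-fold above WT here as well. Mrpl10, the anchor of the stalk formed by Mrpl12, had levels of 1.26 in the double mutant, against 0.15 in TET2KD, 0.04 in JAK2V617F and -0.30 in WT. It stood out in the double mutant alone. Mrpl36 (1.33), Mrps18b (1.30), Mrps15 (1.21), Mrps9 and Mrpl32 (both 1.19), Mrps24 (1.08), Mrps5 (1.06), Mrpl17 (1.03) and Mrpl1 (1.01) made up the rest.

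The lower members were Mrps28 (-1.82), Mrps35 (-1.47), Mrpl14 (-1.34), Mrps27 and Mrps31 (both -1.31), Mrps25 (-1.30), Mrpl22 (-1.19), Mrps12 (-1.17), Mrpl23 (-1.13), Mrps21 (-1.08) and Mrpl55 (-1.06). Mrps12 is the counterpart of the bacterial decoding-site protein in which streptomycin resistance arises. Mrps35 had levels of -1.99 in the double mutant and -1.88 in JAK2V617F, against -0.59 in TET2KD and -0.53 in WT, which separated the arrays by JAK2V617F. As in TET2KD, the erythroid genes Slc4a1 and Hba-a1 were higher in the double mutant than in WT (20.1-fold and 5.4-fold), and their part was not tested. Members with a bacterial counterpart had a median of 0.39 (14 higher and 6 lower past 2-fold), and mitochondria-specific ones 0.22 (2 higher and 5 lower). Among all genes, 15.3% were higher and 16.6% lower past 2-fold.

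Against JAK2V617F cells, double mutant cells had fewer members past 2-fold than the share of all genes. The median was -0.20 (all 14982 genes compared, -0.02). At least 2-fold, 6 members were higher (7.79%, where 12.3% of all genes were) and 5 lower (6.49%, where 12.7% of all genes were). The 6 higher were Mrpl35 (2.67), Mrpl37 (1.73), Mrps7 (1.49), Mrpl32 (1.30), Mrpl10 (1.22) and Mrpl1 (1.01). The 5 lower were Mrps27 (-2.10), Mrps28 (-1.44), Mrpl14 and Mrpl22 (both -1.30) and Mrpl12 (-1.01). Short of 2-fold followed Mrpl55 (0.85), Mrps36 (0.70), Mrpl30 (0.64) and Mrps11 (0.62) among the higher, and Mrps9 (-0.97), Mrpl23 (-0.95), Mrps25 (-0.94), Mrps22 (-0.92) and Mrpl18 (-0.88) among the lower. Mrps27, which in human cells binds RNA through pentatricopeptide repeats, had a level of -1.33 in the double mutant, against -0.28 in TET2KD, 0.78 in JAK2V617F and -0.01 in WT, and the double mutant was the lowest array. By any amount, 57.1% of the members and 51.3% of all genes were lower. Among the 30 mitochondria-specific members 22 were lower, and among the 47 with a bacterial counterpart 22 were. The difference between these subsets was not tested.

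Against TET2KD cells, most members were higher in double mutant cells, with the median farthest from 0 of the 5 comparisons. It was 0.49 (all 14565 genes compared, 0.02). At least 2-fold, 21 members were higher (27.3%, where 15.8% of all genes were) and 5 lower (6.49%, where 15.5% of all genes were). By any amount, 52 of 77 were higher (67.5%, against 51.1% of all genes). The medians of the large and small subunit were close, at 0.52 and 0.48.

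Mrpl35 was at least 15.2-fold and Mrpl38 at least 4.76-fold higher in the double mutant, both being below background in TET2KD. Mrpl55 was 8.64-fold higher, and Mrps36 (2.50), Mrpl53 (2.27), Mrpl43 (2.20), Mrps2 (2.14), Mrpl3 (2.09), Mrps18b (2.04) and Mrps5 (1.96) followed. The Mrps18b value is the mean of 3 probes, at 0.55, 0.65 and at least 4.91, the last below background in TET2KD. That of Mrps2 is the mean of probes at 0.49 and 3.8. Mrpl3 is the counterpart of a bacterial protein close to the peptidyl transferase centre, and its level was 2.82 in the double mutant, against 0.73 in TET2KD, with 2.63 in JAK2V617F and 2.18 in WT. Only TET2KD was low for this gene. The 5 lower members were Mrps11 (-1.43), Mrps35 (-1.40), Mrpl28 (-1.36), Mrps6 (-1.21) and Mrps27 (-1.05), and after them, short of 2-fold, came Mrps25 (-0.97), Mrpl4 and Mrpl13 (both -0.74), and Mrps34 and Mrpl48 (both -0.66).

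**Figure D2:**
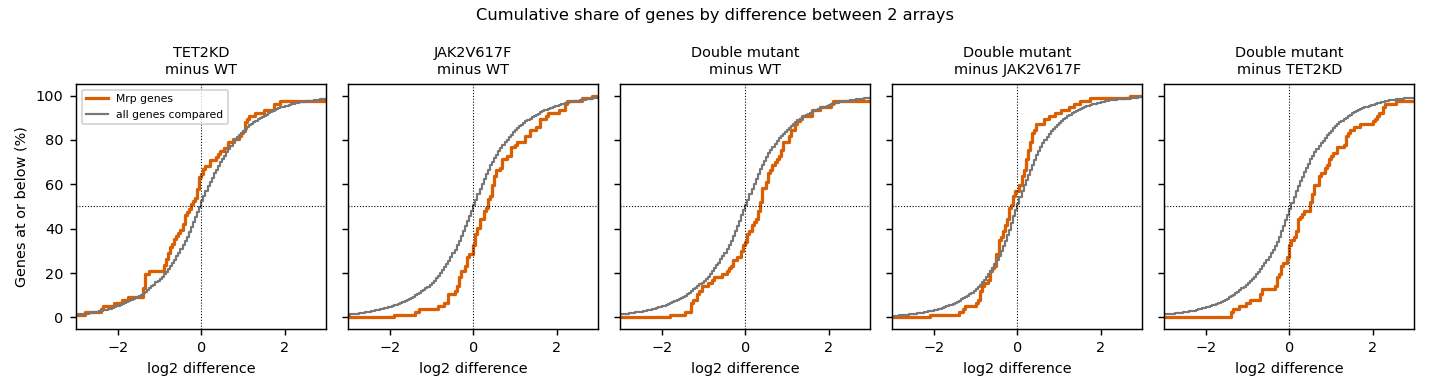
Cumulative share of genes (percent, vertical axis) at or below each log2 difference (horizontal axis), for the mitochondrial ribosomal protein genes (thick line) and all genes compared (thin line), in 5 comparisons of 2 arrays, drawn from -3 to 3. The members' line crosses 50% at -0.26, 0.33, 0.31, -0.20 and 0.49 from left to right, and that of all genes within 0.05 of 0.

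Each lesion can be compared in 2 pairs of arrays that share no array. For the TET2 knock-down these are TET2KD against WT and the double mutant against JAK2V617F. Over 76 members 13 were higher in both, 30 lower in both and 33 opposite, so 56.6% had the same direction, against 51.4% of all genes. The difference in one pair said little about that in the other (Pearson's r = 0.14, Spearman's rho = 0.07 across these genes, which are not independent replicates). At least 2-fold higher in both were 2 members, Mrpl37 and Mrpl1 (2.58% of all genes were), and at least 2-fold lower in both 2 members, Mrpl14 and Mrps28 (2.84% of all genes were). Mrpl12 was 1.04 higher in TET2KD and -1.01 in the double mutant, the 1 member past 2-fold in opposite directions (5.34% of all genes were).

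For JAK2V617F, the pairs are JAK2V617F against WT and the double mutant against TET2KD. Over 77 members 35 were higher in both, 8 lower in both and 34 opposite, which makes 55.8% with the same direction, against 54.2% of all genes (r = 0.01, rho = 0.05). The 4 members at least 2-fold higher in both were Mrpl35 (below background in WT and TET2KD), Mrpl36, Mrpl43 and Mrps5 (4.02% of all genes were). Mrps35 was the 1 member at least 2-fold lower in both (3.77% of all genes were), and Mrpl28, Mrpl55 and Mrps31 were past 2-fold in opposite directions (5.11% of all genes were). Mrps18b lay just outside, with 1.0 in JAK2V617F against WT and 2.04 in the double mutant against TET2KD.

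**Figure D3:**
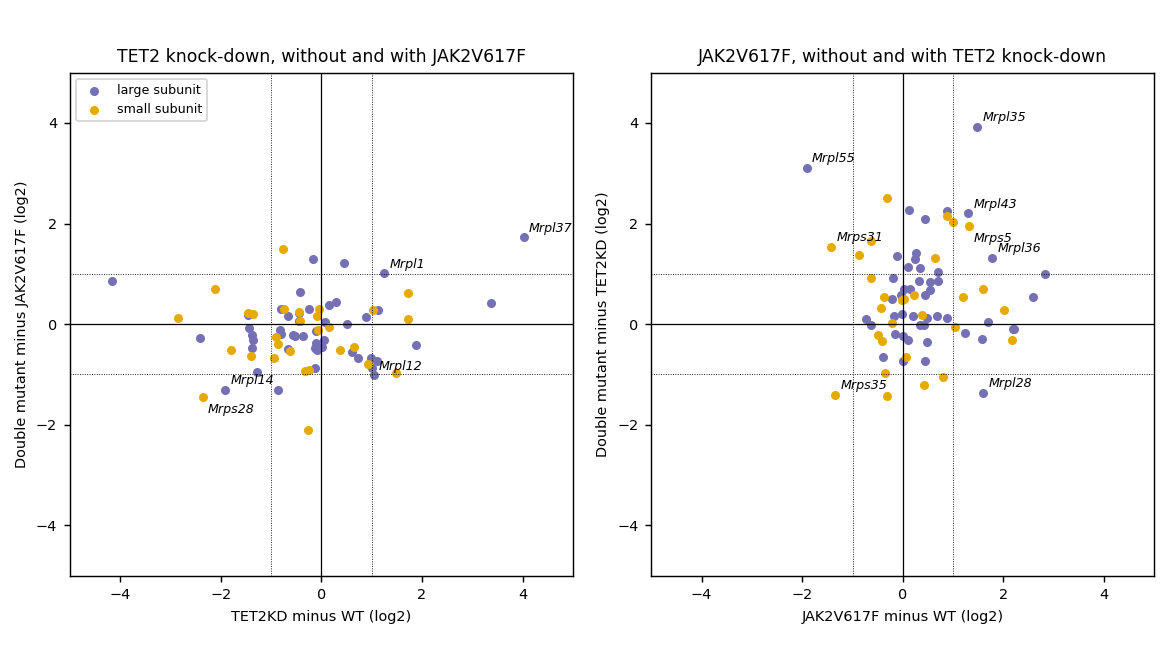
Each point is 1 member; the axes give log2 differences between 2 arrays, and the pair on the vertical axis shares no array with that on the horizontal axis. Dotted lines mark 2-fold, members past it in both pairs are named, and the points show little relation (r = 0.14 on the left, 0.01 on the right).

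The difference of these differences (the double mutant over TET2KD, less JAK2V617F over WT) had a median of 0.22 over the members, against 0.01 over all genes. It was at least 2-fold above 0 for 17 members (20.0% of all 16086 genes were) and at least 2-fold below 0 for 15 (20.5% of all genes were). The extremes were Mrpl55 at 5.02 and Mrpl28 at -2.96.

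A limma fit with additive terms for both lesions over the 4 arrays is the only test the design allows. It leaves 1 residual degree of freedom per gene, takes the interaction as error and cannot tell the lesions from the collection times. At an adjusted p of 0.05 none of the 77 members and none of the 16086 genes passed for either lesion (0.0% of all genes), with the lowest adjusted p in limma at 0.94 for the TET2 knock-down and 0.717 for JAK2V617F. At an unadjusted p under 0.05 limma gave 1 member higher with the knock-down (2.16% of all genes were) and 2 lower (2.34% of all genes were). It gave 8 higher with JAK2V617F (3.38% of all genes were) and 1 lower (3.05% of all genes were). With the brightest probe per gene, the 8 became 4 (549 of all 16086 genes). With only probes above background on all 4 arrays, 5 of 75 members were higher (426 of 10567 genes).

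With the knock-down, Mrpl37 had an effect of 2.88 ± 0.71 (SE; adjusted p in limma 0.94), Mrps28 -1.90 ± 0.50 and Mrpl14 -1.61 ± 0.47. With JAK2V617F, Mrpl43 had 1.75 ± 0.50 (adjusted p in limma 0.717), Mrps5 1.63 ± 0.47 and Mrpl36 1.55 ± 0.46. Mrpl35 had 2.70 ± 0.74, but its WT and TET2KD values were set at the background floor, so this effect is not a measured one. Mrpl50, Mrpl38, Mrps18b and Mrps2 had effects from 1.51 to 1.91, and Mrps35 had -1.37 ± 0.45. Floor values also entered for Mrpl38 and 1 probe of Mrps18b in TET2KD, and for 1 probe of Mrpl50 in WT. None of these effects passes the adjusted threshold. The median effect over the members was -0.20 for the knock-down (all genes -0.01) and 0.40 for JAK2V617F (all genes -0.05).

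Some members hardly moved. Mrps10, a small subunit protein with a bacterial counterpart, had levels of 6.79 (TET2KD), 6.65 (JAK2V617F) and 6.82 (double mutant), against 6.87 (WT), a range of 0.22 over the arrays. The next smallest ranges were those of Mrpl27 (0.25), Mrpl2 (0.30), Mrpl42 (0.35), and Mrpl9 and Mrps26 (both 0.38). Mrpl2 is the counterpart of a core protein beside the peptidyl transferase centre. The small ranges of Mrpl27, Mrpl9 and Mrps26 are means of 2 probes that did not agree. The Mrpl27 probes gave 1.06 and -0.90 in TET2KD against WT, and the one nearer the 3′ end shares runs of 16 bases with probes of 12 other gene names.

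Probes of 1 gene were a check on how far a single probe can be trusted, since 49 of the 77 members had only 1. The other 28 had 2 to 4 probes. Where probes overlapped by 40 bases or more, they gave nearly the same differences. The 2 Mrpl23 probes shown above gave -1.34 and -1.23 in TET2KD against WT, and for the double mutant -1.13 and -1.12. Those of Mrps21 gave -1.30 and -1.50 in TET2KD, those of Mrpl40 0.11 and -0.28, and the overlapping pair of Mrps18b -0.06 and -0.04. The Mrps17 probes, with 8 bases between them, gave -1.06 and -1.64.

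Mrps7 was the exception among close probes. In TET2KD against WT its upstream probe was at 1.49 and its downstream probe at -3.01, and in JAK2V617F against WT they were at 1.23 and -2.98. In the double mutant against WT both were above 0, at 1.02 and 0.21. They were opposite again in the double mutant against JAK2V617F (-0.21 and 3.19) and against TET2KD (-0.47 and 3.22). The Mrps7 value of each comparison is the mean of both probes.

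Probes 100 or more bases apart agreed less. Of the pairs above background on both arrays, 8 of 15 had the same direction in TET2KD against WT, 11 of 19 in JAK2V617F against WT and 15 of 19 in the double mutant against WT. It was 13 of 21 in the double mutant against JAK2V617F and 10 of 17 in the double mutant against TET2KD. Their median gap was 1.05, 1.11, 1.12, 0.83 and 0.67 log2 units in these comparisons, against 0.30, 0.26, 0.18, 0.12 and 0.18 for the 6 pairs under 100 bases apart. A 2-fold difference of a member with a single probe is therefore of the size by which separate probes of a gene differed.

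Among these pairs, Mrps2 gave -0.16 at its 5′ probe and -3.42 at its 3′ probe in TET2KD against WT. Mrpl43 gave -2.38 at its 5′ probe and -0.36 at its 3′ probe there, and 0.75 and 1.86 in JAK2V617F against WT, so its direction was the same at both probes. For the double mutant over WT, Mrps25 gave -2.24 and -0.35, Mrpl22 -1.92 and -0.46, and Mrpl9 1.36 and -0.64. The third Mrps18b probe was at 2.79 there, while the overlapping pair of that gene gave 0.49 and 0.61. In JAK2V617F against WT, both probes of Mrpl41 (1.13 and 1.32) and of Mrps33 (0.52 and 1.56) were higher, while those of Mrpl15 gave -0.32 and 1.19, those of Mrpl10 -0.24 and 0.92, and those of Mrps23 0.17 and -1.0. The probes of Mrpl4 (1.31 and 0.44 in TET2KD), Mrpl30 (0.96 and 0.80 in the double mutant) and Mrps26 (0.72 and 0.05 in JAK2V617F) had the same direction there.

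Probes below background took part in several other members. Of the 109 probes, 96 were above background on all arrays, 8 on 1 to 3 arrays and 5 on none. Those 5 belong to Mrpl20, Mrpl21, Mrpl39 and Mrpl47 (2 probes), each of which had another probe above background. In Mrpl49 and Mrpl50 1 of 2 probes was below background in WT. In TET2KD this held for 1 of 2 probes of Mrps36 and 1 of 3 of Mrps18b. In all, 20 of the 109 probes share a run of 16 bases with a probe of another gene name.

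**Figure D4:**
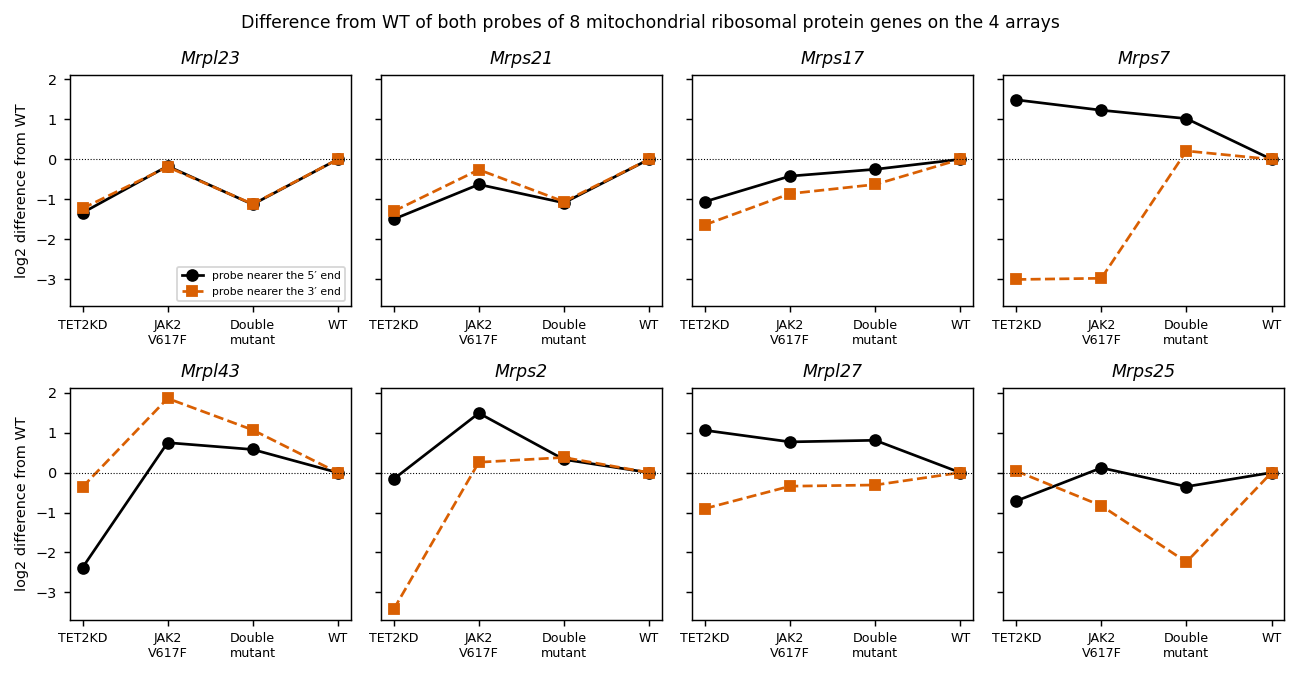
Difference from WT (log2, vertical axis) of both probes of 8 members on the TET2KD, JAK2V617F and double mutant arrays, with WT at 0. The lines of Mrpl23 and Mrps21, whose probes overlap, nearly coincide, while the Mrps7 probes lie at 1.49 and -3.01 in TET2KD.

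The upstream sequence of the members was examined in RefSeq promoters of GRCm38.p6, from 250 bases before to 50 after the start. Of the 77 members 68 matched, with 74 promoters, and were set beside 17492 protein-coding genes with 21263 promoters. Mitochondrial protein genes are known as targets of nuclear respiratory factors, among them NRF1 and the ETS-family factor GABP, and of YY1. Each motif was searched on both strands. The ETS core CCGGAAG was in a promoter of 25 members (36.8%) and of 12.9% of all these genes. The YY1 core AAGATGGC was in 12 members (17.6%, against 3.57%). The NRF1 core GCATGCGC was in 8 members (11.8%, against 3.94%), and the TATA sequence TATAAA in 5 (7.35%, against 14.8%). The members' promoters were richer in CG dinucleotides, with a median of 21.5 each, against 13 in all promoters.

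Of the 29 ETS matches 17 began within 100 bases before the start and 9 at or after it, and of the 12 YY1 matches 8 began at or after it. The 150 bases before the start are shown for 3 members named above, with ETS or YY1 matches in capitals. They are Mrpl53 (chr6:83108958-83109107, plus strand), lowest in TET2KD, and Mrpl43 (chr19:45006443-45006592, minus strand) and Mrpl36 (chr13:73330859-73331008, plus strand), both higher in the 2 comparisons for JAK2V617F.
Mrpl53: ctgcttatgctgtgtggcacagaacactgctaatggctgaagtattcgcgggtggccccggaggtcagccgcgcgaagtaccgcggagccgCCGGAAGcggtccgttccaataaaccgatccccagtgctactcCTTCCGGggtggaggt
Mrpl43: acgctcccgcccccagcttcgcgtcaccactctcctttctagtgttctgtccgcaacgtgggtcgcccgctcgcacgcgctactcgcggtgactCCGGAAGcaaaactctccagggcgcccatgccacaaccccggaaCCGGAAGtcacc
Mrpl36: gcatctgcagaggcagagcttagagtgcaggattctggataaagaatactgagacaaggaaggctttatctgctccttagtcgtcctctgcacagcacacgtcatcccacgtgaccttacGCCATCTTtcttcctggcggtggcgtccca

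Mrpl53 and Mrpl43 each hold 2 ETS matches in this window, and Mrpl36 holds 1 YY1 match. In TET2KD against WT, 25 members with the ETS core had a median of -0.44 and 42 without it -0.14. For JAK2V617F the medians were 0.38 with it and 0.26 without it, and for the double mutant 0.25 with it and 0.36 without it. In the double mutant against JAK2V617F they were -0.32 with it and 0.06 without it, and against TET2KD 0.32 with it and 0.57 without it. Members with the YY1 core had medians of -0.16 (11 members), 0.50 and 0.75 (12 members each) in TET2KD, JAK2V617F and the double mutant against WT, and those without it -0.42, 0.25 and 0.30. In the double mutant they were 0.07 with it and -0.21 without it against JAK2V617F, and 0.59 and 0.52 against TET2KD. For the NRF1 core (8 members) the medians against WT were -0.36, 0.52 and 0.76 with it, and -0.36, 0.25 and 0.29 without it. In the double mutant they were 0.04 with it and -0.20 without it against JAK2V617F, and 0.94 and 0.50 against TET2KD. These medians are descriptions and were not tested. Mrps11 and Mrpl46 start 42 bases apart on chromosome 7, yet in TET2KD against WT Mrps11 was at 1.73 and Mrpl46 at 0.51.

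Other genes of the pathway were described from lists. The 6 other mitochondrial ribosomal proteins, which carry other names in the array files, had a median of -0.76 in TET2KD against WT, 0.01 in JAK2V617F and -0.03 in the double mutant. At least 2-fold, 3 of the 6 were lower in TET2KD (17.5% of all genes were) and none higher (15.9% of all genes were). Mrpl58 (named Ict1 in the files and so not a member), a peptidyl-tRNA hydrolase built into the large subunit, was 31.9-fold lower in TET2KD. Gadd45gip1 was 2.87-fold lower, and Ptcd3 (0.67) was the highest of them. Among 12 translation factors, 10 were compared in TET2KD against WT, with a median of -0.56. At least 2-fold higher was 1 (15.9% of all genes were), the elongation factor Gfm1 (at least 6.53-fold). At least 2-fold lower were 3 (17.5% of all genes were), led by Gfm2 (2.81-fold) and the elongation factor Tufm (2.47-fold). In JAK2V617F and the double mutant the medians of the translation factors were -0.41 and 0.00. The release factor Mtrf1 was 13.7-fold lower in the double mutant.

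Of the 23 assembly factors, 21 had a probe above background on any array. Those compared had medians of -0.27, -0.15 and -0.02 in TET2KD, JAK2V617F and the double mutant against WT. Tfb1m, the methyltransferase of the small ribosomal RNA, was at least 9.36-fold lower in TET2KD, and Rcc1l was 6.67-fold lower there and 11-fold lower in JAK2V617F. Highest in TET2KD were Mterf4, at least 8.75-fold above WT, and the methyltransferase Nsun4, 2.14-fold above WT. In JAK2V617F, Rpusd4 was at least 8.81-fold and Nsun4 2.96-fold higher, and Ddx28 3.2-fold lower. Of the 20 mitochondrial tRNA synthetases and amidotransferase subunits, those compared had medians of -0.83, 0.27 and 0.10. In the double mutant against TET2KD their median was 1.04. There, 9 of 17 were at least 2-fold higher (15.8% of all genes were) and none lower (15.5% of all genes were). In TET2KD against WT, Fars2 was at least 23.2-fold and Ears2 at least 10.4-fold lower, while Lars2 was at least 3.54-fold higher and Cars2 4.82-fold higher, with a probe of Cars2 below background on 1 side. Of the 11 genes of mitochondrial transcription and DNA maintenance, those compared had medians of -0.34, 0.37 and 0.05. Polg, the DNA polymerase, was at least 3.25-fold higher in TET2KD, 4.33-fold in JAK2V617F and 2.61-fold in the double mutant than in WT. Twnk, the helicase, was at least 2.96-fold, 3.7-fold and 3.91-fold lower in these mutants. Tfb2m, a factor of mitochondrial transcription initiation, was 6.06-fold lower in TET2KD.

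Most products of the nuclear respiratory chain genes join those made on mitochondrial ribosomes. These genes had a median of -0.45 for TET2KD against WT, 0.20 for JAK2V617F against WT and 0.15 for the double mutant against WT. TET2KD was the lowest array for 57 of 81 of them (70.4%, against 20.8% of all genes). At least 2-fold against WT, 2 were higher in TET2KD (15.9% of all genes were) and 15 lower (17.5% of all genes were). In JAK2V617F 7 were higher (15.5% of all genes were) and none lower (15.7% of all genes were). In the double mutant 10 were higher (15.3% of all genes were) and 3 lower (16.6% of all genes were). The extremes in TET2KD were Ndufa2 (-1.48) and Ndufa3 (-1.47), and Cox6a2 (1.2) and Ndufa6 (1.19). Against TET2KD, 72 of 81 were higher in the double mutant by any amount (51.1% of all genes were), with a median of 0.63. The cytosolic ribosomal protein genes had medians of -0.25, -0.14 and -0.28 against WT, and 0.02 in the double mutant against TET2KD. WT was their highest array for 58 of 81 (71.6%), against 18 of 77 mitochondrial ribosomal protein genes (23.4%) and 27.5% of all genes. The share of the mitochondrial ribosomal protein genes was thus near that of all genes.

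**Figure D5:**
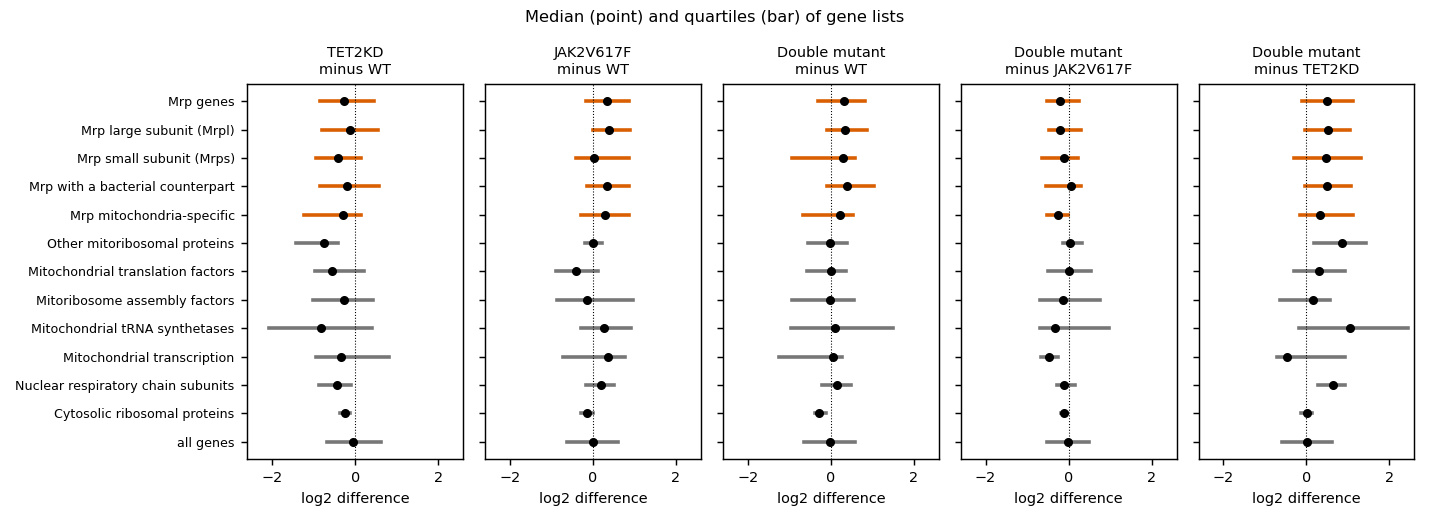
Median (point) and quartiles (bar) of the log2 difference of each gene list in 5 comparisons of 2 arrays; the mitochondrial ribosomal protein genes and their subsets are in the upper 5 rows and all genes compared in the lowest. Respiratory chain medians lie at -0.45 in TET2KD minus WT and 0.63 in the double mutant minus TET2KD, those of cytosolic ribosomal protein genes at -0.25 and 0.02.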

How the data were processed

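Per the file headers, the authors read each spot's intensity with Agilent Feature Extraction 10.7.3.1, which subtracts background and does not scale arrays to each other, and placed probes on mm9. RNA was amplified with NuGEN Ovation Pico WTA and labelled with Cy3, per the labels' protocols. The deposited series matrix holds log2 values of the same signal, shifted by 1 constant per array (0 of 55249 probes off by more than 0.001; column medians -2.64 for WT, -2.63 for TET2KD and -2.6 for the others). All arrays lay on 1 slide with 1 scan session.

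From the 59305 non-control spots, log2 signals minus the array's 75th percentile were taken, outlier spots (162 to 199 per array) dropped, spots averaged per probe and probes per gene. The number of arrays limits the precision. A gene was compared where a probe was well above background on 1 or both arrays, and a side below background was raised to the lowest signal well above it (log2 -2.79 in TET2KD, -3.22 in JAK2V617F, -3.19 in the double mutant and -3.01 in WT), which makes such a fold a lower bound. Other genes were named through RefSeq GRCm38.p6 (28026 probes by accession, 3418 by symbol, 295 by synonym, 23942 unnamed). The additive fit used limma 3.58.1 in R 4.3.3, with p-values adjusted by Benjamini-Hochberg over all genes, and was tested on simulated data.

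Named in each comparison were the 10 members with the largest difference each way, those past 2-fold in both pairs for a lesion, those with the 6 largest and smallest ranges, those below background on all arrays and those with several probes, and examples among the 2 largest differences each way of a list. Members, lists and this rule were chosen with earlier results of these data known. The alternatives tried were normexp (offset 50), quantile and median scaling, stricter and no filters, the brightest probe, the series matrix and a 3-fold threshold. Some marker results, the sums of the erythroid and of the B and plasma cell lists included, are not reported here.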

Additional observations from a re-analysis of the deposited data

Results flagged for a closer look

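A total of 4 members were past 2-fold in opposite directions in 2 pairs of arrays that differ by the same lesion. All of these pairs except JAK2V617F against WT also differ in collection time. Mrpl12 was at 1.04 in TET2KD against WT and -1.01 in the double mutant against JAK2V617F, so the second value minus the first was -2.05. Mrpl28 was at 1.60 in JAK2V617F against WT and -1.36 in the double mutant against TET2KD (-2.96), Mrpl55 at -1.91 and 3.11 (5.02), and Mrps31 at -1.43 and 1.54 (2.97). These differences were not tested, since each rests on 4 single arrays, and 5.34% and 5.11% of all genes behaved likewise for the knock-down and for JAK2V617F.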

How the results depend on the processing

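The median of the members kept its direction in all 5 comparisons of 2 arrays under all alternatives run. It ranged from -0.27 to -0.12 in TET2KD against WT, 0.22 to 0.44 in JAK2V617F against WT, 0.28 to 0.34 in the double mutant against WT, -0.21 to -0.14 in the double mutant against JAK2V617F and 0.37 to 0.52 in the double mutant against TET2KD. Of the counts past the threshold, 88 stayed within 1.5 times of the reported count and 20 did not. The 88 include the limma counts at the adjusted threshold, which were 0 under every setting the fit was run with. With normexp background correction, fewer members passed 2-fold: 4 higher in TET2KD against WT, 11 higher in JAK2V617F against WT, 7 higher and 4 lower in the double mutant against WT, 2 higher and 3 lower in the double mutant against JAK2V617F, 1 lower in the double mutant against TET2KD, and 10 above 0 in the difference of differences. At 3-fold, by its construction, counts were 5 higher and 7 lower in TET2KD against WT, 10 higher and 1 lower in JAK2V617F against WT, 5 higher and 1 lower for the double mutant over WT, 2 higher and 1 lower for it over JAK2V617F, and 11 higher and 0 lower for it over TET2KD, with 8 above 0 in the difference of differences. Counts over all 16086 genes fell as well. In the difference of differences 3220 of them were at least 2-fold above 0, against 1447 with normexp and 1768 at 3-fold. Otherwise, shares of all genes under the alternatives are not given, and the member counts alone show nothing particular to the members. With the brightest probe per gene, 5 were lower in JAK2V617F against WT. For that choice Mrps7 turned to -0.21 in the double mutant against JAK2V617F and -0.47 in the double mutant against TET2KD, because 1 of its 2 opposite probes was then left. The cause of the other shifts was not tested. Among the recomputed differences of single members past 2-fold, 653 stayed, 124 moved by more than the spot spread and 2 reversed. Alternatives with single-probe genes, each probe on its own and without Mrps36 were chosen after seeing the data. No paired analysis was possible because each group had 1 array. No array could be left out, since each was its group's only one.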
